A study of Mus musculus with 10 samples.

Results

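The change in gene expression from proliferating neurospheres to 2 + 1 DIV, when mitogens have been absent for 24 h, was examined in cultures of adult mouse neural stem and progenitor cells (NSC/NPCs) labelled p27KO. It rests on 4 of the 10 RNA-seq libraries of the series, chosen by the genotype and stage given in their titles. They were 2 libraries of neurospheres and 2 of cells at 2 + 1 DIV, numbered 1 and 2 at each stage. The numbers were not stated to mark pairs, and the libraries were compared as unpaired. The other 6 libraries, 3 of each stage, were WT, and they served here to estimate the spread between replicates and for comparison. All cultures came from the subependymal zone of mice with an age of 10 weeks. The p27KO mice carry a mutation of Cdkn1b, the gene of the CDK inhibitor p27, and were kept on a C57BL/6 J background. The methods of the study call its RNA-seq libraries biological replicates, and the sources used here do not state how many animals or cultures they came from, so that p-values measure the spread between these libraries.

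Neurospheres, the floating aggregates in which these cells divide, were taken at 3 DIV from medium with 20 ng/ml EGF and 10 ng/ml FGF. For 2 + 1 DIV, 40000 cells per square centimetre were seeded on Matrigel for 2 days with FGF as the mitogen, and mitogens were then replaced by 2% fetal bovine serum. Attachment, the earlier loss of EGF, serum and the loss of mitogens therefore came together with the stage, and their parts in a change cannot be told apart. All 4 samples bear p27KO in title and genotype, but WT in the free text that describes them. Counts of Cdkn1b were not lost in them, and they are called the libraries labelled p27KO throughout. Their totals lay between 20332078 and 25223929 estimated counts. Levels are given in CPM, the count of a gene scaled to the total of its library, in the order replicate 1 and replicate 2 of a stage. Of 48795 genes listed, 12859 passed the filter on low counts and were tested. A gene was called UP or DOWN by its direction at 2 + 1 DIV where the two-sided quasi-likelihood test of edgeR gave a p below 0.05 after Benjamini-Hochberg adjustment over all genes tested. All adjusted p-values and standard errors (SE) of log2 fold changes given come from this test.

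Mitogens bound to receptor tyrosine kinases drive the ERK cascade, which induces D-type cyclins together with feedback inhibitors of the cascade itself. Cyclin-CDK activity then releases E2F factors from the pocket proteins of the retinoblastoma family, and genes of DNA replication are transcribed, followed by genes of mitosis whose promoters often carry CHR and CCAAT elements. When mitogens are removed, CDK inhibitors such as p27 and the DREAM complex of pocket proteins, E2F4 and the MuvB core hold these genes down, while NSC/NPCs of the subependymal zone begin to take up the fates of neurons, astrocytes and oligodendrocytes.

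The cells were checked against markers of the labelled type and of other types that such cultures could hold. All 8 markers of neural stem and progenitor cells passed the filter, with summed levels of 7050 to 7530 CPM in neurospheres and 8250 to 8440 CPM at 2 + 1 DIV. Nes, which encodes the intermediate filament nestin, nevertheless fell from 1476 and 1735 CPM to 180.0 and 216 CPM, a log2 fold change of -3.05 (SE 0.22, adjusted p = 5.1e-06). Vim, the gene of vimentin, fell by 0.36 (adjusted p = 0.014), a call lost without replicate 2 of either stage (-0.32 and -0.30, adjusted p = 0.088 and 0.068), and Prom1, the surface antigen CD133, rose from 10.1 and 10.5 CPM to 29.0 and 34.9 CPM. None of 10 microglial markers passed the filter, and Cx3cr1, Ptprc, C1qa and Tyrobp had 0 counts in all 4 libraries. Summed endothelial markers lay between 23.8 and 37.1 CPM in neurospheres and between 12.8 and 21.9 CPM at 2 + 1 DIV, with Cldn5 and Cdh5 at 0. The endothelial markers did not move together, since Flt1 fell while Kdr and Slco1a4 rose (values below). The 10 markers of pericytes and fibroblasts summed to 1.12 to 1.62 CPM and then to 5.67 to 10.9 CPM, with Lum at 0, and those of mature neurons to 32.0 to 35.8 CPM and then 27.9 to 35.0 CPM. The 10 ependymal markers summed to 37.5 to 46.5 CPM in neurospheres and 101 to 109 CPM at 2 + 1 DIV, where Foxj1 made up most of the sum. Only 3 of them passed the filter, with 1 UP, 1 DOWN and 1 not called, so that the set did not rise as a whole. Foxj1, the factor of motile cilia and the UP member, rose from 14.9 and 18.1 CPM to 84.4 and 90.7 CPM, whereas Ccdc153 and Tmem212 were under 0.25 CPM in every library. The part of other cells in the changes given was not tested, and in these bulk samples fewer cells of a type and less RNA per cell cannot be told apart.

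The stage change took in 57.7% of the genes tested, 27.5% as UP and 30.2% as DOWN genes. Most changes were moderate. Of the 3541 UP genes, 1595 rose by more than 2-fold, 401 by more than 4-fold and 35 by more than 16-fold, and of the 3883 DOWN genes 1542, 363 and 27 fell by as much. The median log2 fold change was 0.92 over UP genes, -0.84 over DOWN genes and -0.03 over all genes tested. Long intergenic noncoding RNAs were mostly UP where they were called, with 94 UP and 16 DOWN of 196 tested. Without one of the 4 libraries 2825 to 3231 genes were UP and 3036 to 3511 DOWN.

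**Figure D1:**
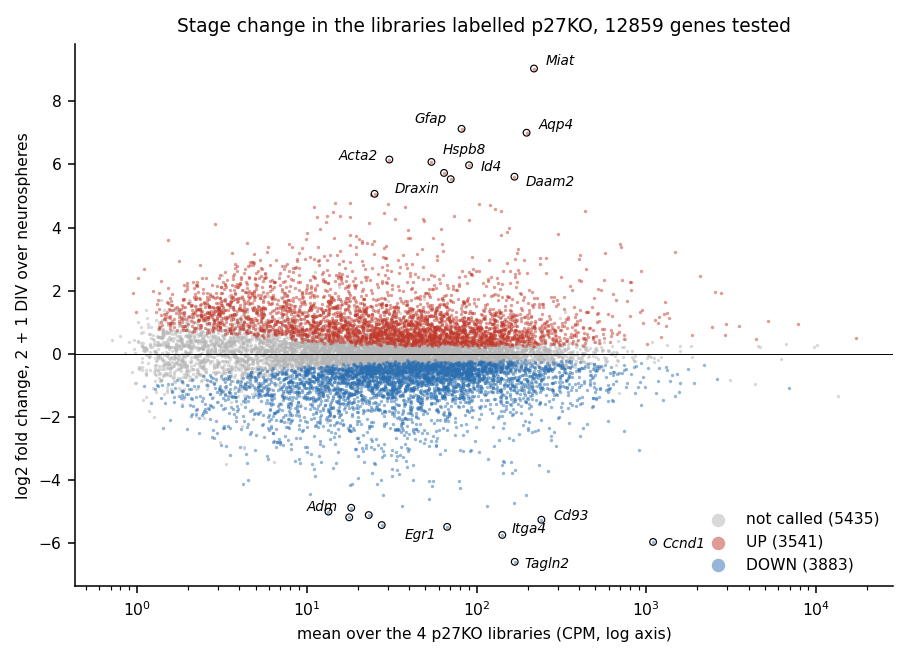
Each point is a gene tested, with its mean over the 4 libraries labelled p27KO (CPM, log axis) against its fitted log2 fold change from neurospheres to 2 + 1 DIV; red are the 3541 UP genes, blue the 3883 DOWN genes and grey the 5435 genes not called. Rings mark the 10 largest rises and 10 largest falls described in the text, from Miat at 9.04 to Tagln2 at -6.60.

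With a mean level of 10 CPM or more required, the 10 largest rises were those of Miat, Gfap, Aqp4, Acta2, Hspb8, Id4, Thbs1, Daam2, Draxin and Lix1, with log2 fold changes from 9.04 down to 5.07. Miat (ENSMUSG00000097767, chromosome 5 of GRCm38, 112213228 to 112229395, minus strand), a long noncoding RNA, went from 0.826 and 0.787 CPM to 389 and 481 CPM. Gfap, the intermediate filament of astrocytes, went from 1.53 and 0.689 CPM to 144 and 180 CPM, and Aqp4, the water channel of astrocytes, from 3.26 and 2.71 CPM to 454 and 328 CPM. Acta2, smooth muscle actin, was below 1 CPM in both neurosphere libraries and differed between those of 2 + 1 DIV, at 32.5 and 88.5 CPM (log2 fold change 6.15, SE 0.70, adjusted p = 0.00011). Hspb8 encodes a small heat shock protein, Thbs1 the secreted glycoprotein thrombospondin-1, Daam2 a formin of Wnt signalling and Draxin a secreted guidance protein of axons. The rule for naming them required that the stages did not overlap, which 40.0% of genes tested met with higher and 39.8% with lower levels at 2 + 1 DIV, and in each the libraries of 2 + 1 DIV were the high ones. The same limit applied to the largest rises and falls named from each list below. Of all called genes, only 2 overlapped between stages. Stages that stand apart in a called gene are therefore a description and add nothing to its call. Miat, Gfap, Aqp4, Id4, Thbs1, Draxin and Lix1 overlap other annotated genes, with which counts could be shared.

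The 10 largest falls under the same limits were those of Tagln2, Ccnd1, Itga4, Egr1, AI593442, Cd93, Adm, Angpt2, Tnfrsf12a and Tle2, from -6.60 to -4.88. Tagln2 (ENSMUSG00000026547, chromosome 1 of GRCm38, 172500047 to 172507380, plus strand), which encodes an actin-binding transgelin, went from 267 and 397 CPM to 4.24 and 2.70 CPM. Itga4, the integrin alpha 4 subunit, went from 178 and 378 CPM to 6.22 and 4.32 CPM. Cd93, a transmembrane receptor, was spread widely at both stages, with 311 and 628 CPM and then 19.4 and 5.35 CPM, and its log2 fold change of -5.26 had a standard error of 1.26 (adjusted p = 0.0073). Adm (adrenomedullin), Angpt2 (angiopoietin-2) and Tnfrsf12a (the TWEAK receptor) encode proteins of signalling between cells, and Tle2 a transcriptional corepressor. Neurospheres were the higher stage throughout.

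Genes of mitogen receptors and ERK feedback were mostly lower after withdrawal. Of 23 such genes tested 17 were DOWN and 3 UP (against 30.2% and 27.5% of all genes tested), with a median of -1.82 on the log2 scale (-1.64 in WT), against -0.03 over all genes. Egr1, an immediate early transcription factor, was at 145 and 118 CPM in neurospheres and at 3.09 and 2.83 CPM at 2 + 1 DIV. Spry4, an inhibitor of receptor tyrosine kinase signalling, went from 211 and 232 CPM to 9.87 and 6.07 CPM, a log2 fold change of -4.81 (SE 0.24, adjusted p = 1.4e-06). Spry4 thus kept 3.60% of its neurosphere level, and neither gene overlapped between stages. The ERK phosphatase gene Dusp6 fell by 3.79 on the log2 scale, the ETS factor Etv5 by 2.74 and Myc, which drives growth and ribosome production, by 2.44. The genes that moved against the list were receptors and 1 antagonist: Fgfr2 rose from 19.9 and 22.0 CPM to 84.3 and 93.7 CPM, Fgfr3 from 23.6 and 30.2 CPM to 164 and 151 CPM, and Il17rd, which restrains FGF signalling, by 0.95 on the log2 scale. Egfr, the receptor of EGF, was at 549 and 733 CPM and then 707 and 645 CPM, with overlapping stages and a log2 fold change of 0.05 (adjusted p = 0.85). Fgfr1 and Spred1, with fitted values of 0.04 and -0.08, were the other members not called.

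Nearly all genes of the cell cycle lists fell. Of 50 genes of G1/S and DNA replication, 49 were DOWN, and of 60 genes of G2/M and mitosis, 56 were DOWN, with medians of -2.39 and -1.66. The DOWN shares were 98.0% and 93.3%, against 30.2% of all genes. The G1/S genes kept a median of 19.4% of their neurosphere level and the G2/M genes 32.2%. In WT these medians were 13.3% and 11.1%, so that the order of the lists was the opposite there. Ccnd1, which encodes cyclin D1 and overlaps LTO1, went from 2075 and 2238 CPM to 36.5 and 33.7 CPM, or 1.63% of its neurosphere level. Chaf1b, a subunit of the chromatin assembly factor of replication, went from 51.6 and 46.0 CPM to 2.54 and 3.10 CPM, a log2 fold change of -4.14 (SE 0.24, adjusted p = 2.0e-06). Pcna, the clamp of DNA polymerases, fell by 2.42. Cdk6, a partner kinase of cyclin D, was the G1/S member not called, at 55.2 and 50.5 CPM and then 67.4 and 78.0 CPM. Its fitted log2 fold change of 0.43 passed the test when the 4 libraries were fitted alone (0.47, adjusted p = 0.017 from the same edgeR test).

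Among mitotic genes, Mybl2, a partner of the MuvB core, fell most, from 40.2 and 36.9 CPM to 4.16 and 5.13 CPM, a log2 fold change of -3.08. Aurkb, the kinase of the chromosomal passenger complex, went from 55.4 and 55.9 CPM to 11.1 and 9.89 CPM. Cdk1, the kinase of mitotic entry, went from 156 and 130 CPM to 33.7 and 28.9 CPM, a log2 fold change of -2.22 (SE 0.22, adjusted p = 3.3e-05). The stages did not overlap for these 3 genes. The 4 members not called were Cenpf, Hjurp, Cdc25b and Pttg1. Cenpf, a kinetochore protein, stayed at 263 and 240 CPM against 326 and 314 CPM in neurospheres, 78.6% of that level, and its log2 fold change of -0.37 (adjusted p = 0.17) passed the test with the 4 libraries fitted alone (-0.34, adjusted p = 0.036, edgeR) and with a block for replicate number (-0.37, adjusted p = 0.036, edgeR). Hjurp, a chaperone of the centromeric histone, overlapped between stages, at 373 and 176 CPM and then 80.2 and 191 CPM. Its log2 fold change of -1.04 (adjusted p = 0.053) passed the edgeR test at -1.79 without replicate 2 of 2 + 1 DIV (adjusted p = 0.0057) and at -1.47 without replicate 2 of the neurospheres (adjusted p = 0.015), and was -0.55 and -0.43 without replicate 1 of either stage. The phosphatase gene Cdc25b and Pttg1, the gene of securin, had fitted values of 0.02 and 0.05.

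**Figure D2:**
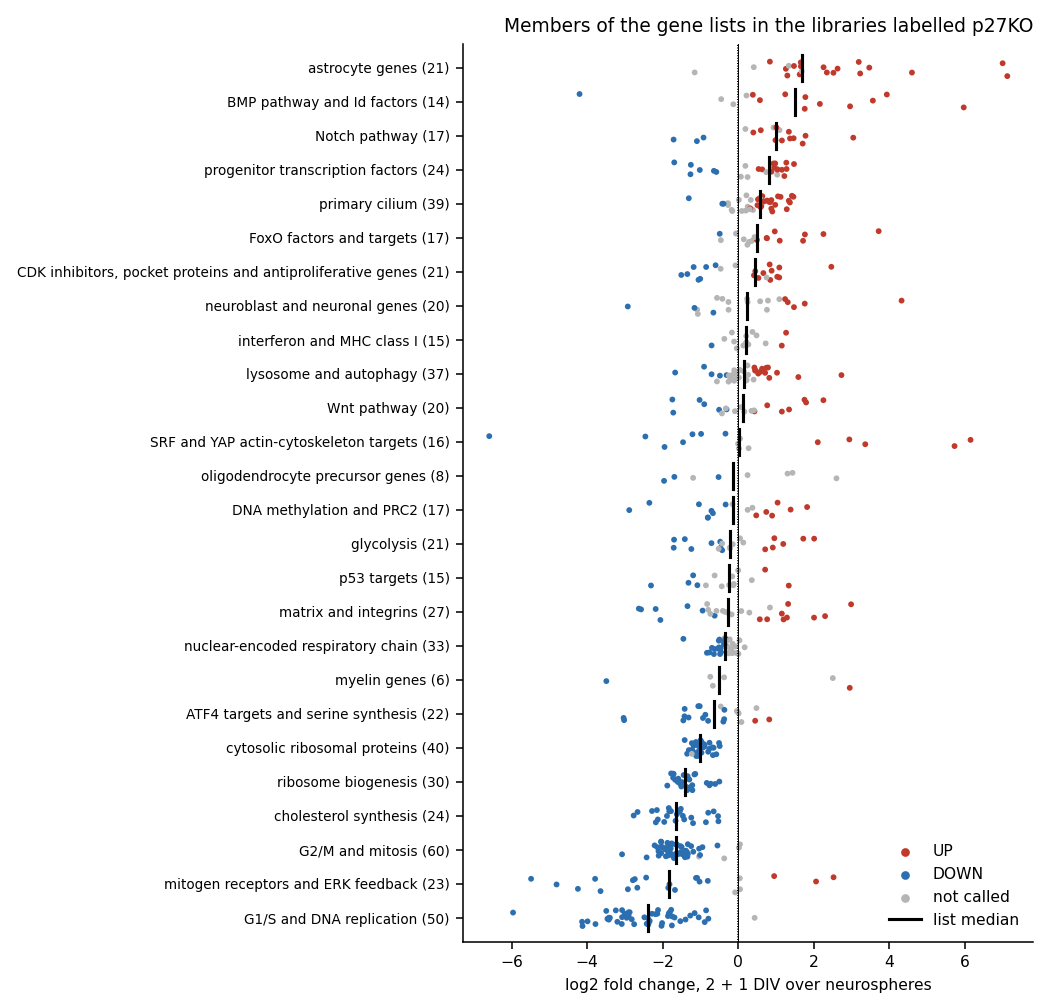
Each point is a tested member of a gene list, at its log2 fold change from neurospheres to 2 + 1 DIV in the libraries labelled p27KO, with the number tested in brackets, red for UP, blue for DOWN, grey for not called and a black bar at the list's median. Lists run from astrocyte genes, with a median of 1.68, down to genes of G1/S and DNA replication, with -2.39.

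Promoters of 3 G2/M and 2 G1/S genes are shown as examples of the letters searched for in both lists. The sequences are the 250 bases before the transcription start given by RefSeq (GRCm38.p6), read in the direction of the gene. Capitals mark matches to 3 motifs on either strand, the other strand being read as the reverse complement. The cell cycle homology region, CHR, was searched as TTTGAA. The CCAAT box was searched by the letters that name it. The element bound by E2F factors was searched as TTCCCGC. No letters of these motifs overlap in the windows printed. Cdk1 lies at chr10:69352913-69353162 (minus strand), Cdc20, an activator of the anaphase-promoting complex, at chr4:118437344-118437593 (minus), Top2a, a topoisomerase of mitotic chromosomes, at chr11:99024190-99024439 (minus), E2f7, a repressor among the E2F factors, at chr10:110745189-110745438 (plus) and Chaf1b at chr16:93883651-93883900 (plus). For Cdk1 and Cdc20 the start in the GENCODE annotation lies 26 and 9 bases from that of RefSeq, and for the other 3 genes the starts are the same.
Cdk1: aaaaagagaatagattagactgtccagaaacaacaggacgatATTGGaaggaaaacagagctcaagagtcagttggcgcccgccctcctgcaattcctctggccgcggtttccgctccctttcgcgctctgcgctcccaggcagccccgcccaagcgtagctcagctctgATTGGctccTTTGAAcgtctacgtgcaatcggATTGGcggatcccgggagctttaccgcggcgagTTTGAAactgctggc
Cdc20: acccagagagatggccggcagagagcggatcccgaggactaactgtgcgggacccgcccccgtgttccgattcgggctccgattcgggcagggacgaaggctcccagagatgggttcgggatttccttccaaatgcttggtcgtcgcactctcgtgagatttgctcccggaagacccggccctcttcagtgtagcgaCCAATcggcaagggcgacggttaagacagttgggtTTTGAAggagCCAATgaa
Top2a: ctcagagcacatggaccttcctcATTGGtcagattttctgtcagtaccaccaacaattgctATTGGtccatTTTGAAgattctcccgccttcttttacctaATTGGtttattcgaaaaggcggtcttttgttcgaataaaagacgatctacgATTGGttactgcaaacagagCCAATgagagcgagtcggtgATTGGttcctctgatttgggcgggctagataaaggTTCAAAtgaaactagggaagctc
E2f7: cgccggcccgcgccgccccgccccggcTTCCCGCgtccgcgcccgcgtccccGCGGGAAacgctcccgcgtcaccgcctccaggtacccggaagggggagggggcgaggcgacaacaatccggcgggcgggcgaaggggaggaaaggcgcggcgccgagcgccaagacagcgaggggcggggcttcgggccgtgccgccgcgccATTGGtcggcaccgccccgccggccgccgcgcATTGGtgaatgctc
Chaf1b: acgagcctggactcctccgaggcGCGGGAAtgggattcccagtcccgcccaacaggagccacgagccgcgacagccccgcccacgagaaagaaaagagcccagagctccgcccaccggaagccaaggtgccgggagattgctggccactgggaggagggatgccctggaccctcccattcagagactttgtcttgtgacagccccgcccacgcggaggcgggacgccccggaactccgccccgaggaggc
Cdk1 and Top2a each hold 2 CHR matches, and Cdc20 holds 1, the nearest of them 15, 23 and 18 bases before the start. All 3 also hold CCAAT, with 3 matches in Cdk1, 2 in Cdc20 and 6 in Top2a. E2f7 holds 2 E2F and 2 CCAAT matches, and Chaf1b 1 E2F match.

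Over the list as a whole, from 250 bases before to 50 bases after the start, CHR was found for 36 of the 50 G2/M genes with a promoter sequence (72.0%), CCAAT for 38 (76.0%) and the E2F element for 1 (2.00%). Of the 41 G1/S genes with a sequence, 19.5% held CHR, 56.1% CCAAT and 41.5% (17) the E2F element. Over the 9265 protein-coding genes tested that had a sequence, these shares were 11.2%, 39.5% and 9.15%, and over all 32851 promoters given by RefSeq they were 17.9%, 37.4% and 4.60%. The E2F element was found for 12.7% of DOWN, 6.71% of UP and 8.01% of uncalled genes, whereas CHR was found for 12.9%, 10.5% and 10.4%. Outside the cell cycle lists, 43.0% of the 830 genes with the E2F element were DOWN and 20.2% UP, with a median of -0.23, against 31.9%, 27% and -0.05 over all genes with a sequence. Within the G2/M list the median change was -1.58 for the 36 genes with CHR and -1.70 for the 14 without. Within the G1/S list it was -2.285 for the 17 genes with the E2F element and -2.909 for the 24 without. A match of letters is a description and not a site of binding.

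**Figure D3:**
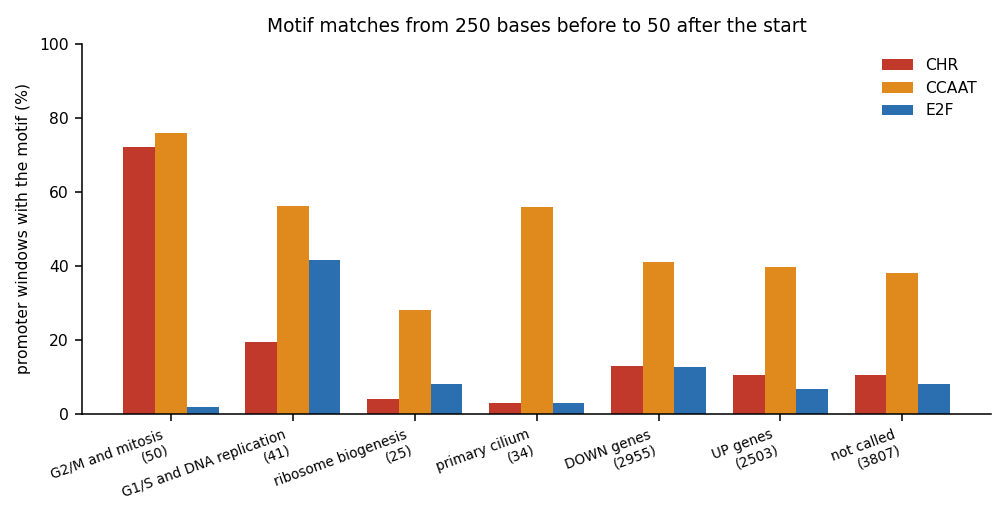
Bars give the share of promoter windows, from 250 bases before to 50 after the start, that hold CHR, CCAAT or the E2F element on either strand, for gene lists and for DOWN, UP and uncalled protein-coding genes, with the number of windows in brackets. CHR was found in 72.0% of the G2/M windows and the E2F element in 41.5% of the G1/S windows.

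Where the stage change differed from that in WT, cell cycle genes were frequent. The interaction of genotype and stage passed the test for 50 genes, 0.389% of those tested, of which 25 were in the 2 cell cycle lists, 6 of G1/S and 19 of G2/M. Of these 50 genes 49 were DOWN in the libraries labelled p27KO, and in all 50 the fall was smaller than in WT. Of the 60 G2/M genes, 59 had a higher log2 fold change than in WT, with a median difference of 1.53 on the log2 scale, against 0.52 for G1/S genes and -0.01 over all genes tested. The change was also higher than in WT for 42 of 50 G1/S genes and 6193 of the 12859 genes tested. Other lists leaned either way, with 21 of 24 cholesterol genes and 4 of 37 lysosome and autophagy genes higher. Of the 50 genes past the test, the 5 with the largest differences at a mean level of 10 CPM or more were E2f7 at 2.21, Esco2 at 2.09, Bub1 at 1.88, Cep55 at 1.86 and Spc25 at 1.81. Bub1, a kinase of the spindle checkpoint, was at 83.2 and 71.6 CPM in neurospheres and 23.1 and 21.5 CPM at 2 + 1 DIV, whereas the 3 WT libraries at 2 + 1 DIV were at 7.79, 4.06 and 6.17 CPM. E2f7 was at 41.0 and 43.8 CPM and then 6.54 and 6.21 CPM, against 1.32, 0.539 and 1.42 CPM in WT at 2 + 1 DIV. Both were thus higher at 2 + 1 DIV than in every WT library of that stage. They were named for the size of their interaction, so that this is a description and no further support. Esco2 serves sister chromatid cohesion, Cep55 the final cut between daughter cells and Spc25 the kinetochore. The interaction calls rested on every library labelled p27KO and every WT neurosphere library. Without any single library labelled p27KO the count was 0 with edgeR (408 to 1046 genes at an unadjusted p under 0.05, 554 with all libraries), without replicate 1, 2 or 3 of the WT neurospheres it was 13, 0 and 0 (495 to 610), and without replicate 1 or 2 of WT at 2 + 1 DIV it was 88 and 82. With DESeq2 on all libraries it was 157, and 29 under a block for replicate number. The 554 genes at an unadjusted p under 0.05 with all libraries were fewer than 5% of the 12859 tested in edgeR. A share of 5% would be reached with no difference in any gene. Xist was between 2260 and 3590 CPM in the libraries labelled p27KO and at most 2.57 CPM in WT, so that genotype and sex cannot be told apart in this comparison.

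**Figure D4:**
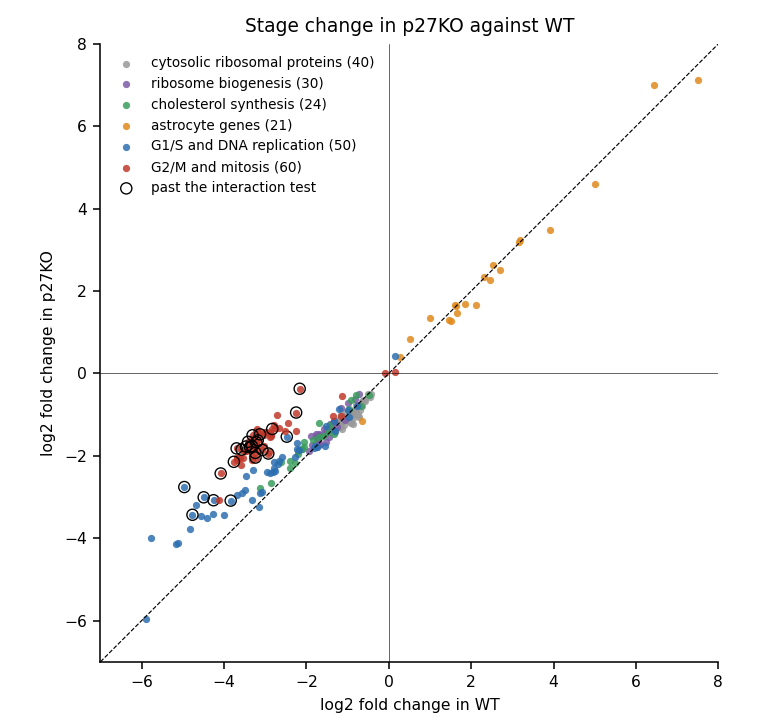
Each point is a gene of 6 lists, at its log2 fold change from neurospheres to 2 + 1 DIV in WT (x axis) and in the libraries labelled p27KO (y axis); the dashed line marks equal change and rings the genes past the interaction test. Of 60 genes of G2/M and mitosis, 59 lie above the line, with medians of -3.19 in WT and -1.66 in the libraries labelled p27KO. Also above it lie 42 of 50 G1/S, 21 of 24 cholesterol, 22 of 30 ribosome biogenesis, 10 of 21 astrocyte and 7 of 40 ribosomal protein genes. Their median differences from WT were 0.52, 0.23, 0.135, -0.15 and -0.08, against 1.53 for G2/M genes.

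Cdkn1b itself (ENSMUSG00000003031, chromosome 6 of GRCm38, 134920401 to 134925513, plus strand) was at 114 and 90.7 CPM in the neurospheres labelled p27KO and at 140.2 and 137 CPM at 2 + 1 DIV. The stages did not overlap, and the log2 fold change was 0.42 (SE 0.10, adjusted p = 0.0061), with values between 0.28 and 0.57 without 1 of the 4 libraries. In WT it was 0.94, and the difference between the genotypes did not pass the test (adjusted p = 0.24). Counts per gene carry no record of the exons covered.

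Other antiproliferative genes went in both directions. Of 21 CDK inhibitors, pocket proteins, DREAM members and antiproliferative genes, 11 were UP and 7 DOWN. These shares were 52.4% and 33.3%, against 27.5% and 30.2% of all genes, and the median was 0.45. The largest rise was that of Cdkn1c, which encodes the CDK inhibitor p57, from 4.63 and 1.87 CPM to 12.9 and 24.0 CPM, a log2 fold change of 2.47 (SE 0.52, adjusted p = 0.0030). Rb1, the retinoblastoma protein, rose from 84.5 and 74.0 CPM to 173 and 169 CPM, and its relative Rbl2 (p130) rose by 0.88, whereas Rbl1 (p107), itself a gene of cycling cells, fell from 83.0 and 82.0 CPM to 34.9 and 31.0 CPM. Of the MuvB core, Lin52 rose by 1.09 while Lin9 and Lin54 fell by 1.05 and 1.18. The antiproliferative genes Btg2 and Ccng2 rose by 0.85 and 1.03. Cdkn1a, the gene of p21, was at 346 and 443 CPM in neurospheres and 159 and 123 CPM at 2 + 1 DIV, with no overlap. Its fall of 1.51 on the log2 scale (SE 0.53, adjusted p = 0.036) lost its call without any 1 of the 4 libraries (-1.30 to -1.72, adjusted p = 0.051 to 0.16) and under a block for replicate number (adjusted p = 0.099), all from edgeR's quasi-likelihood test. Cdkn2a, the locus of p16 and p19, was at 34.9 and 23.8 CPM and then 19.3 and 24.0 CPM, and was not called (-0.47, adjusted p = 0.32).

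FoxO factors and their targets, genes of the quiescent and unfed state that growth factor signalling holds down, were UP in 9 of 17 cases and DOWN in 1, with a median of 0.50 (0.62 in WT). These shares were 52.9% and 5.88%, against 27.5% and 30.2% of all genes. Txnip, an inhibitor of thioredoxin and of glucose uptake, went from 3.43 and 1.92 CPM to 32.7 and 39.6 CPM, a log2 fold change of 3.72 (SE 0.59, adjusted p = 0.00069). Klf15 rose from 6.78 and 7.53 CPM to 33.9 and 35.7 CPM, and Foxo3 itself from 106 and 119 CPM to 215 and 234 CPM. Sesn3, a brake on mTORC1, and Pik3ip1, an inhibitor of PI3 kinase, rose by 1.72 and 1.77. In all of these the stages were apart and 2 + 1 DIV was the higher. Irs2, an adaptor of insulin receptors, was the DOWN member (-0.49, adjusted p = 0.014), and lost its call without either library of 2 + 1 DIV or without replicate 2 of the neurospheres (-0.42 to -0.49, adjusted p = 0.062 to 0.072). Sod2 was at 131 and 118 CPM and then 128 and 115 CPM, with overlapping stages.

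Targets of p53 showed no common direction, with 2 of 15 UP and 4 DOWN (13.3% and 26.7%, against 27.5% and 30.2% of all genes). Their median was -0.25 (-0.81 in WT). Plk2, a kinase of centriole duplication, fell from 174 and 155 CPM to 36.9 and 30.4 CPM. Sesn1 rose from 25.2 and 21.4 CPM to 59.6 and 60.3 CPM. Fas, the death receptor, rose by 0.71 (adjusted p = 0.029) and Tnfrsf10b, the TRAIL receptor, fell by 1.32 (adjusted p = 0.012). The call of Fas was lost without either library of 2 + 1 DIV and without replicate 2 of the neurospheres (0.52 to 0.76, adjusted p = 0.074 to 0.17), and that of Tnfrsf10b without replicate 2 of either stage (-0.93 and -1.02, both with an adjusted p of 0.083). Ccng1 was not called, at 655 and 546 CPM and then 574 and 540 CPM.

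**Figure D5:**
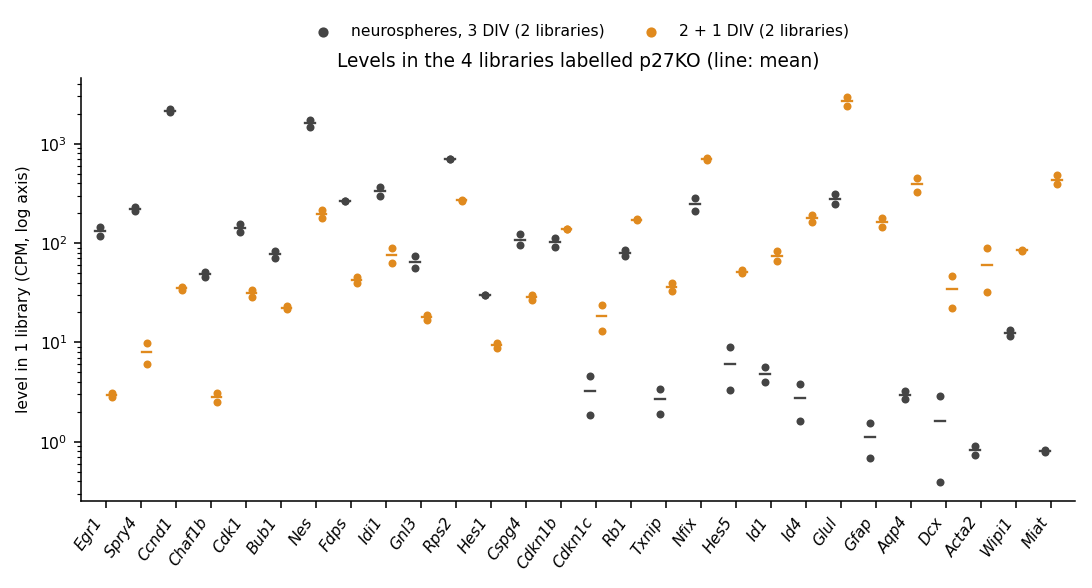
Points give the level of selected genes in each library labelled p27KO (CPM, log axis), black for the 2 neurosphere libraries and orange for the 2 at 2 + 1 DIV, with a line at the mean of each stage. Egr1 drops from 145 and 118 CPM to 3.09 and 2.83 CPM, and Miat rises from 0.826 and 0.787 CPM to 389 and 481 CPM.

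Genes of fate and signalling followed. Of 24 transcription factors of progenitors tested, 13 were UP and 6 DOWN, with a median of 0.81. Nfix, a factor linked to quiescence of neural stem cells, went from 210 and 287 CPM to 716 and 693 CPM, a log2 fold change of 1.48 (SE 0.16, adjusted p = 5.0e-05), and Sox21 from 67.0 and 72.0 CPM to 170 and 174 CPM. The oligodendroglial factors Olig2 and Olig1 fell, Olig2 from 668 and 782 CPM to 224 and 232 CPM and Olig1 from 1067 and 1348 CPM to 555 and 475 CPM. The stages did not overlap for these 4 genes, high at 2 + 1 DIV for the first pair and in neurospheres for the second. Sox9, a factor of stem cells and astrocytes, was at 292 and 229 CPM and then 260 and 295 CPM, with overlapping stages.

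In the Notch pathway, which keeps progenitors undifferentiated through contact between cells, 11 of 17 genes were UP and 3 DOWN, with a median of 1.01. The shares were 64.7% and 17.6%, against 27.5% and 30.2% of all genes. The effector genes Hes5 and Hes1 went opposite ways. Hes5 rose from 8.88 and 3.30 CPM to 49.8 and 53.3 CPM, a log2 fold change of 3.05 (SE 0.37, adjusted p = 0.00012), whereas Hes1 fell from 30.0 and 30.0 CPM to 8.76 and 9.85 CPM (-1.71, SE 0.20, adjusted p = 6.8e-05). Of the receptors, Notch2 rose from 57.6 and 79.8 CPM to 224 and 257 CPM. Lfng, which modifies Notch receptors, fell by 1.10 (adjusted p = 0.0088), a call lost without replicate 1 of 2 + 1 DIV (-0.91, adjusted p = 0.066) or replicate 2 of the neurospheres (-0.95, adjusted p = 0.051). Numb, an inhibitor of Notch, was at 28.6 and 35.1 CPM and then 38.7 and 35.3 CPM and was not called (0.19, adjusted p = 0.22), but passed without replicate 2 of the neurospheres (0.37, adjusted p = 0.036) and was 0.03 without replicate 1.

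The BMP pathway and its Id targets, which encode helix-loop-helix inhibitors of differentiation, were UP in 10 of 14 cases, with a median of 1.50 (1.43 in WT). The UP share was 71.4% and the DOWN share 7.14%, against 27.5% and 30.2% of all genes. Id4 went from 3.84 and 1.62 CPM to 165 and 191 CPM, Id1 from 3.97 and 5.66 CPM to 82.7 and 66.5 CPM and Id2 from 44.6 and 41.0 CPM to 390 and 288 CPM. Smad9, a transducer of BMP signals, rose by 3.57. The ligand gene Bmp7 was the DOWN member, from 111 and 95.6 CPM to 5.47 and 5.94 CPM, a log2 fold change of -4.21 (SE 0.19, adjusted p = 6.6e-07). In each of these the stages stood apart. Smad5, another transducer, was at 308 and 258 CPM and then 259 and 266 CPM, with overlap. In the Wnt pathway 7 of 20 genes were UP and 6 DOWN, near the 27.5% and 30.2% of all genes. The median of 0.12 was -0.06 and 0.21 without replicate 1 or 2 of 2 + 1 DIV, and 0.02 and 0.28 without replicate 1 or 2 of the neurospheres. The receptor Fzd3 rose from 140.1 and 148 CPM to 523 and 497 CPM and the secreted antagonist Sfrp1 from 33.7 and 26.3 CPM to 122 and 170 CPM, whereas the receptor Fzd1 fell from 46.0 and 53.3 CPM to 16.8 and 13.9 CPM. Nkd1, a feedback inhibitor, fell by 1.02, or by 0.66 without replicate 2 of the neurospheres. Ctnnb1, the gene of beta-catenin, was not called, at 1167 and 950.1 CPM and then 1014 and 1010 CPM.

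Astrocyte genes rose together, with 17 of 21 UP and 0 DOWN (81.0% UP, against 27.5% of all genes). Their median was 1.68 (2.12 in WT). Glul, which encodes glutamine synthetase, went from 314 and 247 CPM to 2933 and 2420 CPM, Apoe, a carrier of lipids, from 96.4 and 131 CPM to 1352 and 1215 CPM and Clu from 13.2 and 6.54 CPM to 182 and 310 CPM. Slc1a3, a glutamate transporter of astrocytes and stem cells, rose from 648 and 604 CPM to 2049 and 1884 CPM. All 4 were apart between stages, as nearly all called genes were, with both libraries of 2 + 1 DIV high. Fabp7, a lipid-binding protein of radial glia, was at 2213 and 1235 CPM and then 3089 and 3160 CPM. Its rise of 0.84 (adjusted p = 0.028) was 0.49 without replicate 2 of the neurospheres and 1.29 without replicate 1, and its call was lost without either library of 2 + 1 DIV or replicate 2 of the neurospheres (adjusted p = 0.080 to 0.17). Cpe was not called, at 385 and 283 CPM and then 355 and 549 CPM (0.41, adjusted p = 0.12), but passed without replicate 1 of 2 + 1 DIV (0.69, adjusted p = 0.021) and was 0.07 without replicate 2. The summed level of the list was 4524 to 5820 CPM in neurospheres and 18740 to 19130 CPM at 2 + 1 DIV.

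Of 20 neuroblast and neuronal genes 5 were UP and 3 DOWN, shares no higher than the 27.5% and 30.2% of all genes. Their median of 0.24 was 0.13 without replicate 2 of 2 + 1 DIV. Dcx, a microtubule protein of neuroblasts, was spread widely, at 2.85 and 0.393 CPM in neurospheres and 22.0 and 46.4 CPM at 2 + 1 DIV. Its log2 fold change of 4.33 (SE 1.07, adjusted p = 0.0082) was 6.37 without replicate 1 of the neurospheres, 3.57 without replicate 2 and 3.71 without replicate 2 of 2 + 1 DIV. Dpysl5, a protein of growing axons, rose from 28.1 and 28.4 CPM to 92.1 and 103 CPM. Gap43, the growth-associated protein, fell from 574 and 461 CPM to 66.4 and 72.1 CPM, and Cd24a, a surface protein of neuroblasts, from 301 and 291 CPM to 121 and 149 CPM. Map2 was not called, at 1836 and 1502 CPM and then 1966 and 2067 CPM. The log2 fold changes of 8 genes of oligodendrocyte precursors ran from -1.97 to 2.60, and 0 were UP. Their median of -0.14 was -0.04 without replicate 1 and -0.23 without replicate 2 of the neurospheres. Of the 8 genes 3 were DOWN (37.5%, against 30.2% of all genes). Among them were Cspg4, the NG2 proteoglycan, from 95.0 and 122 CPM to 27 and 29.7 CPM, and Bcas1 (-1.69, adjusted p = 0.022), whose call was lost without replicate 1 of either stage (-1.27 and -1.18, adjusted p = 0.12 for both). Ptprz1 was not called, at 4246 and 4019 CPM and then 4878 and 5100 CPM. Only 6 of 16 myelin genes passed the filter, with 1 UP, 1 DOWN and log2 fold changes from -3.5 to 2.95. Their median of -0.52 was -0.10 without replicate 1 of the neurospheres and -0.35 without replicate 1 of 2 + 1 DIV. Trf, transferrin, fell from 55.3 and 37.7 CPM to 4.40 and 3.96 CPM, while Cnp was at 86.1 and 62.0 CPM and then 55.9 and 60.2 CPM.

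Targets of SRF and YAP in the actin cytoskeleton split, with 5 of 16 UP and 7 DOWN (31.2% and 43.8%, against 27.5% and 30.2% of all genes). Their median of 0.01 was 0.04 and -0.04 without replicate 1 or 2 of 2 + 1 DIV, and 0.02 and -0.17 without replicate 1 or 2 of the neurospheres. Beside Tagln2, Zyx, which encodes zyxin of focal adhesions, fell from 57.3 and 96.2 CPM to 14.7 and 13.7 CPM and Actb, beta-actin, from 2184 and 2122 CPM to 856 and 1035 CPM, while Acta2 and Thbs1 were among the 10 largest rises. The 10 pericyte and fibroblast markers summed to 1.12 and 1.62 CPM in neurospheres and to 5.67 and 10.9 CPM at 2 + 1 DIV. Replicate 2 of 2 + 1 DIV was the higher, as for Acta2. The part of pericyte-like cells in the rises of Acta2 and Thbs1 was not tested. Cnn3, a calponin, was at 508 and 467 CPM and then 472 and 533 CPM. Genes of matrix and integrins, through which cells attach, were UP in 9 and DOWN in 7 of 27 cases, near the 27.5% and 30.2% of all genes. Their median of -0.26 was 0.05 without replicate 2 of the neurospheres and -0.52 without replicate 1. Itga1 and Itga6, integrin subunits that bind collagen and laminin, rose from 5.25 and 6.15 CPM to 33.8 and 23.2 CPM and from 257 and 257 CPM to 710.0 and 597 CPM. Itga5, the subunit of the fibronectin receptor, fell from 17.5 and 34.0 CPM to 5.99 and 5.53 CPM. The laminin gene Lama4 fell by 2.58 (adjusted p = 0.020), a call lost without either library of 2 + 1 DIV or replicate 1 of the neurospheres (-2.13 to -3.08, adjusted p = 0.051 to 0.12), and Lamc1 was not called, at 283 and 461 CPM and then 318 and 281 CPM (-0.34, adjusted p = 0.27), but passed without replicate 1 of the neurospheres (-0.67, adjusted p = 0.040) and was 0.07 without replicate 2.

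Among metabolic and growth genes, lists of cholesterol and of the ribosome fell nearly as a whole. All 24 genes of cholesterol synthesis and its control were DOWN, with a median of -1.64 (-1.95 in WT), or 32.5% of the neurosphere level. Over all genes tested the DOWN share was 30.2%. Fdps, farnesyl diphosphate synthase, went from 265 and 267 CPM to 45.9 and 39.4 CPM (log2 fold change -2.67, SE 0.16, adjusted p = 2.3e-06). Idi1, an isomerase of the pathway, went from 370 and 297 CPM to 89.0 and 62.7 CPM. Srebf2, the factor that drives these genes, fell by 0.80 (adjusted p = 0.014), a call lost without either library of 2 + 1 DIV or replicate 2 of the neurospheres (-0.55 to -0.82, adjusted p = 0.057 to 0.11). The smallest fall was that of Hmgcs1, an early synthase of the pathway, from 1709 and 1413 CPM to 1115 and 1089 CPM. In each the stages were apart, with neurospheres high. Scd2, a fatty acid desaturase outside the list, went the other way, from 5270 and 5358 CPM to 10150 and 10460 CPM, and was among the 5 genes with the highest level at both stages.

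Ribosome genes fell as well. All 30 genes of ribosome biogenesis were DOWN, with a median of -1.41 (-1.51 in WT), and 39 of 40 cytosolic ribosomal proteins, with a median of -1.01 (-0.91 in WT). Over all genes tested the DOWN share was 30.2%. Gnl3, nucleostemin, went from 73.5 and 55.7 CPM to 16.7 and 19.0 CPM, and Noc2l, a nucleolar protein, from 131 and 142 CPM to 39.6 and 41.4 CPM. Among ribosomal proteins, Rps2 fell from 706 and 708 CPM to 271 and 267 CPM and Rps7 from 91.0 and 62.1 CPM to 34.5 and 26.1 CPM, with no overlap of stages. Rpl27 was the member not called, and its neurosphere libraries differed, at 60.0 and 165 CPM, against 39.4 and 59.0 CPM at 2 + 1 DIV. Its log2 fold change of -1.23 (adjusted p = 0.14) was -1.80 without replicate 1 of the neurospheres (adjusted p = 0.047, past the threshold) and -0.29 without replicate 2. Eef1a1, a translation elongation factor and among the genes of the highest level, fell from 9811 and 8894 CPM to 4551 and 4421 CPM. The ribosomal proteins summed to 13090 and 11280 CPM and then to 6319 and 6273 CPM. Many of them have processed copies in the genome, between which the counting could have split reads.

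Other metabolic lists were mixed. Of 21 genes of glycolysis 6 were UP and 8 DOWN (28.6% and 38.1%, against 27.5% and 30.2% of all genes). Their median of -0.23 was -0.39 without replicate 1 of 2 + 1 DIV. Pfkfb3, a regulator of phosphofructokinase, rose from 31.2 and 28.2 CPM to 125 and 119 CPM and Pdk1, which restrains pyruvate dehydrogenase, from 11.2 and 8.85 CPM to 29.6 and 37.7 CPM, whereas Hk2, hexokinase 2, fell from 32.4 and 28.5 CPM to 8.92 and 10.0 CPM. Pfkp, a phosphofructokinase, fell by 1.70 (adjusted p = 0.017), a call lost without either library of 2 + 1 DIV or replicate 2 of the neurospheres (-1.16 to -1.90, adjusted p = 0.052 to 0.11). Eno1 was not called, at 729 and 722 CPM and then 694 and 568 CPM (-0.23, adjusted p = 0.11), but passed without replicate 1 of 2 + 1 DIV (-0.39, adjusted p = 0.027) and was -0.08 without replicate 2. Of 33 nuclear genes of the respiratory chain, 17 were DOWN and 0 UP (51.5% DOWN, against 30.2% of all genes). Their median of -0.36 was -0.23 without replicate 1 of the neurospheres. Cycs, cytochrome c, fell from 171 and 160 CPM to 64.5 and 58.2 CPM and Cyc1 from 114 and 118 CPM to 66.4 and 66.8 CPM, while Sdha was at 362 and 353 CPM and then 387 and 358 CPM. The mitochondrial genome gave 4.22% and 5.43% of counts in neurospheres and 6.41% and 5.86% at 2 + 1 DIV, and its gene mt-Co1 rose by 0.51 (adjusted p = 0.029), a call lost without either library of 2 + 1 DIV or replicate 1 of the neurospheres (0.34 to 0.54, adjusted p = 0.077 to 0.19).

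Targets of ATF4, the factor of amino acid shortage, and genes of serine synthesis were DOWN in 14 of 22 cases and UP in 2, with a median of -0.63. The shares were 63.6% and 9.09%, against 30.2% and 27.5% of all genes. Slc7a1, a transporter of basic amino acids, went from 92.4 and 139 CPM to 13.7 and 15.0 CPM and Mthfd2, an enzyme of mitochondrial folate metabolism, from 41.9 and 46.5 CPM to 6.30 and 4.72 CPM. Both UP members lost their call without single libraries. Ddit4, an inhibitor of mTORC1, rose by 0.82 (adjusted p = 0.013), a call lost without replicate 1 of either stage (0.80 and 0.75, adjusted p = 0.053 and 0.075), and Phgdh, the first enzyme of serine synthesis, by 0.45 (adjusted p = 0.022), a call lost without replicate 2 of either stage (0.25 and 0.35, adjusted p = 0.21 and 0.12). Psat1 was at 437 and 387 CPM and then 368 and 476 CPM, with overlap.

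Genes of lysosome and autophagy were UP in 13 and DOWN in 5 of 37 cases (35.1% and 13.5%, against 27.5% and 30.2% of all genes). Their median of 0.15 was 0.06 without replicate 1 of the neurospheres or replicate 2 of 2 + 1 DIV, and 0.25 without replicate 2 of the neurospheres. Wipi1, a protein of early autophagosomes, rose from 13.3 and 11.6 CPM to 85.9 and 83.1 CPM (log2 fold change 2.73, SE 0.18, adjusted p = 3.5e-06) and Ctsl, the protease cathepsin L, from 53.4 and 41.2 CPM to 150.0 and 140 CPM. Glb1, the lysosomal beta-galactosidase, fell from 44.5 and 53.6 CPM to 28.2 and 25.1 CPM and Cd63, a tetraspanin of late endosomes, from 249 and 260 CPM to 167 and 151 CPM. Lamp1, at 494 and 491 CPM and then 579 and 590 CPM, did not overlap and was not called (0.22, adjusted p = 0.065), but passed with the size factors of DESeq2 (0.24, adjusted p = 0.045 in edgeR). Genes of the primary cilium, which dividing cells take apart before mitosis, were UP in 23 of 39 cases and DOWN in 3, with a median of 0.58 (0.56 in WT). These shares were 59.0% and 7.69%, against 27.5% and 30.2% of all genes. Wdr19, of intraflagellar transport, rose from 20.3 and 16.0 CPM to 50.1 and 51.7 CPM and Bbs4, of the BBSome, from 7.64 and 6.94 CPM to 20.3 and 19.4 CPM. Of the DOWN members, Ift27 (-0.42, adjusted p = 0.043) lost its call without any 1 of the 4 libraries (adjusted p = 0.061 to 0.18) and Ttc21b (-0.39, adjusted p = 0.014) without replicate 2 of 2 + 1 DIV (-0.32, adjusted p = 0.11). Wdr35 was at 70.4 and 55.2 CPM and then 67.4 and 69.2 CPM.

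Chromatin regulators of DNA methylation and PRC2 went both ways, with 6 of 17 UP and 8 DOWN (against 27.5% and 30.2% of all genes) and a median of -0.15. The maintenance methyltransferase gene Dnmt1 fell from 445 and 446 CPM to 81.2 and 96.1 CPM (log2 fold change -2.36, SE 0.10, adjusted p = 5.5e-07) and Hells, a remodeller used in methylation, from 112 and 91.1 CPM to 12.3 and 15.7 CPM. Tet2, which oxidises methylcytosine, rose from 49.9 and 55.6 CPM to 187 and 193 CPM and Ezh1, a methyltransferase of PRC2, from 6.78 and 7.97 CPM to 22.0 and 17.2 CPM. All 4 were apart between stages. Aebp2 was at 87.7 and 85.5 CPM and then 81.2 and 77.6 CPM, without a call (-0.15, adjusted p = 0.27). Of 15 genes of interferon response and MHC class I, 2 were UP and 1 DOWN (13.3% and 6.67%, against 27.5% and 30.2% of all genes). Their median was 0.21. Tapbp, a chaperone of MHC class I, rose from 21.2 and 25.7 CPM to 54.2 and 60.8 CPM, and B2m was at 58.3 and 62.7 CPM and then 74.7 and 67.9 CPM.

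A further 1137 genes failed the filter over the 10 libraries but reached 1 CPM in at least 2 of the 4 libraries labelled p27KO. Of these, 667 did so in both libraries of 2 + 1 DIV and neither of neurospheres, and 213 in the reverse, and since such a gene passes through the stage where it is high, its difference is a description. Spp1, which encodes the secreted phosphoprotein osteopontin, was at 38.8 and 54.8 CPM in neurospheres and had 1 and 2 counts at 2 + 1 DIV. Areg, the EGF receptor ligand amphiregulin, was at 1.24 and 1.18 CPM in neurospheres and at 0 counts at 2 + 1 DIV, at least 19.2-fold lower against a floor of 3 counts over the stage, and Klrb1c, a lectin-like receptor, at 2.31 and 2.07 CPM and then 0, at least 34.8-fold lower. The genes with 0 counts in both neurosphere libraries that stood highest at 2 + 1 DIV were Slco1a4, an organic anion transporter, at 4.0 and 6.03 CPM (at least 73.5-fold higher), Traf1, an adaptor of TNF receptors, at 5.03 and 4.77 CPM (at least 72.9-fold higher) and Cdh1, the gene of E-cadherin, at 3.01 and 4.81 CPM (at least 57.2-fold higher). Slco1a4 also belongs to the endothelial markers, whose sum was lower at 2 + 1 DIV. Col8a2 and Lrtm2 were at 1.94 and 4.0 CPM and at 2.38 and 3.55 CPM. Gm10335, a processed pseudogene, was at 6.40 and 72.5 CPM in neurospheres and at 0 at 2 + 1 DIV, and Hist1h2ap, a histone gene with near-identical copies, at 1.12 and 1.03 CPM and then 0. Unlike these genes, Flt1 and Kdr, VEGF receptors of endothelium, passed the filter and were tested with all other genes. Flt1 fell from 33.7 and 19.3 CPM to 1.23 and 3.19 CPM. Its call was lost without replicate 1 of 2 + 1 DIV (-3.08, against -3.62 with all libraries). Kdr rose from 1.49 and 1.38 CPM to 5.08 and 10.2 CPM.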

How the data were processed

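RNA was extracted with a miRNeasy micro kit, made into cDNA with the Ovation RNA-seq System V2 and sequenced on a HiSeq4000. The authors aligned reads with STAR and estimated counts per gene with RSEM, and the deposited table holds these estimated counts, unnormalised. Their processing notes also name FastQC, Trimmomatic, cutadapt and DESeq2. Versions, and whether counting used strand, are not given in the sources used here, so that reads of overlapping or antisense genes could have been shared.

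Estimated counts were rounded to whole numbers. Gene symbols and positions (GENCODE M21, GRCm38) were found for 48349 of 48795 genes. Genes below 1 CPM in 4 or more of the 10 libraries were dropped, and 12859 were tested in edgeR 4.0.16 (R 4.3.3, TMM normalisation, robust quasi-likelihood fit) as 4 groups without covariates, so that all 10 libraries shared the estimate of the spread. The stage change was a contrast of the 2 groups labelled p27KO, and the interaction its difference from that of WT. P-values were adjusted by Benjamini and Hochberg over all genes tested at a threshold of 0.05. The fit was first tested on simulated data. DESeq2 1.42.0 served as an alternative, as did other filters, size factors and libraries, a block for the replicate number and thinning to the smallest total. Library totals were 24205236 and 20332078 in neurospheres and 25223929 and 22237950 at 2 + 1 DIV, and a level of 1 CPM thus stood for 20 to 25 counts.

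Samples with the same replicate number were not stated to share an animal, a batch or a day. Deviations of same-numbered libraries from their group means correlated at 0.245, 0.288 and 0.388 in WT and at -0.122 in p27KO, so that the numbers were not taken as pairs.

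Named genes were Cdkn1b, the 10 largest rises and falls among genes of 10 CPM or more on average whose stages did not overlap, up to 2 of each per list under the same limits with the uncalled member of the highest level, the largest interactions, the highest genes and markers. Some genes that this rule picks are not reported here. The other list members named were chosen after their values were seen, and the gene lists and the libraries themselves were chosen with earlier results of these data known. Promoter windows (RefSeq, GRCm38.p6) were found for 9265 of 11356 protein-coding genes tested outside chromosome 18 and the mitochondrial genome. For cholesterol synthesis only 17 of 24 genes had a window, so that a search for the sterol element there was void.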

Additional observations from a re-analysis of the deposited data

Results flagged for a closer look

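In 7 genes named above the stage change in the libraries labelled p27KO differed from that in WT by the interaction test of edgeR, and in each the fitted fall was larger in WT. The difference on the log2 scale was 2.21 for E2f7 (standard error 0.34, adjusted p = 0.032), 2.09 for Esco2 (0.23, adjusted p = 0.022), 1.88 for Bub1 (0.26, adjusted p = 0.023), 1.86 for Cep55 (0.23, adjusted p = 0.023) and 1.81 for Spc25 (0.26, adjusted p = 0.023). For the kinetochore gene Cenpf it was 1.79 (0.29, adjusted p = 0.039), with -0.37 for the stage change of the libraries labelled p27KO and -2.16 for that of WT, and for Aurkb 1.65 (0.27, adjusted p = 0.040), with -2.43 and -4.08. Both libraries labelled p27KO at 2 + 1 DIV were above all 3 WT libraries of that stage in Bub1, Cep55 and E2f7, a description of genes chosen by their interaction. With the replicate number as a block, the interactions of Aurkb (adjusted p = 0.072) and E2f7 (adjusted p = 0.088) did not pass, that of Aurkb was lost after thinning (adjusted p = 0.053) and that of Cenpf without a filter (adjusted p = 0.068). Without any single library labelled p27KO none of the 7 passed.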

How the results depend on the processing

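Of the 163 genes with a fold change above, 134 were called and 29 not. None of the called genes reversed in any alternative, 117 were past the threshold without each of the 4 libraries in turn and 125 in all other fits. The counts of UP and DOWN genes were 3698 and 3880 with DESeq2 and 3885 and 4234 without a filter, and those with at least a 2-fold change were 1595 and 1542. Without 1 library they ranged from 2825 to 3231 and from 3036 to 3511. The interaction count of 50 was 157 with DESeq2, of which 153 were positive, 79 without a filter and 0 to 88 without 1 library. The replicate number as a block gave 3688 UP, 3993 DOWN and 29 interaction genes, and 23 of the 50 remained. Of the genes named, the block ended the call of Cdkn1a and gave one to Cenpf. Every WT library correlated best with its own number, a hint from the data, not the design. With the numbers of the libraries labelled p27KO crossed, a pairing chosen after seeing the data, the counts were 3771, 4010 and 66.

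The genes whose sign changed were all uncalled. Without a filter the values were -0.018 for Egfr, -0.048 for Cnn3, -0.034 for Sdha, -0.054 for Psat1, -0.021 for Pttg1, -0.049 for Cdc25b and -0.027 for Fgfr1. With at least 1 CPM in 2 libraries labelled p27KO, or in any 4, they were -0.016 or -0.017 for Cnn3, -0.001 or -0.003 for Sdha, -0.023 or -0.025 for Psat1 and -0.017 or -0.018 for Cdc25b, which was -0.002 after thinning. Without 1 library they ranged from -0.162 to 0.295 for Egfr, -0.063 to 0.096 for Cnn3, -0.033 to 0.097 for Sdha, -0.176 to 0.178 for Psat1, -0.144 to 0.018 for Sod2, -0.077 to 0.235 for Sox9, -0.210 to 0.045 for Ctnnb1, -0.669 to 0.074 for Lamc1, -0.048 to 0.261 for Wdr35, -0.174 to 0.236 for Cdc25b, -0.128 to 0.192 for Fgfr1 and -0.228 to 0.077 for Spred1. The median of 23 of 26 lists kept its sign, and that of matrix and integrins ranged from -0.520 to 0.053. The cause of these changes was not tested. Having 2 libraries a stage limits the precision of each fold change.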

Other observations

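The libraries of a stage differed most in a few genes. In neurospheres 127 of 9490 genes averaging 10 CPM or more differed by more than 2-fold between the libraries (1.34%), and at 2 + 1 DIV 59 of 9515 (0.62%). Of these, 21 did so at both stages, and in 20 of the 21 the high libraries of the 2 stages had unlike numbers. The same held for all 7 that differed by more than 4-fold at both stages. Vxn was at 3.26 and 112.9 CPM in neurospheres and at 63.0 and 5.80 CPM at 2 + 1 DIV, the pseudogene Gm3608 at 120.3 and 19.0 CPM and then 1.94 and 81.9 CPM, and the pseudogene Gm9855 at 40.7 and 1.48 CPM and then 1.31 and 26.7 CPM. The ribosomal RNA gene CT010467.1 was at 8946 and 29270 CPM in the neurosphere libraries and at 6914 and 8702 CPM at 2 + 1 DIV.

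The stage change was called in both genotypes for 7060 genes. A further 364 were called in the libraries labelled p27KO alone, of which 355 had the same sign in WT.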
